A study of Caenorhabditis elegans with 7 samples.

Results

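The Str superfamily of chemosensory receptors of the nematode Caenorhabditis elegans was examined in larvae of the first stage (L1) that carried a nonfunctional ahr gene and in wild-type larvae. The members were the rows of the authors' deposited value table whose annotation gives exactly 1 gene symbol, where that symbol begins with str-, srd-, srh-, sri-, srj- or srm- or is odr-10. The rule found 28 genes among the 961 rows with 1 gene, 14 of the str family, 8 of srh, 3 of srd and 3 of sri, and no srj or srm gene and not odr-10. All 28 gene identifiers matched the WBcel235 gene table under the same symbol, all as protein-coding genes. In the order of genes of that assembly, str-156 and str-163 lay closest among neighbouring members, with 9 protein-coding genes or pseudogenes between them. A spot on the array could be assigned to 24 of the 28, and these 24 carry the results on single spots.

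Worm chemosensory receptors are G-protein-coupled receptors that cross the membrane several times and sit mostly in the cilia of sensory neurons at the surface of the animal, where they meet odours, pheromones and soluble cues. The Str superfamily is one of the large groups of these genes. It holds the diacetyl receptor ODR-10, and most of its other members have no known ligand. The ahr-1 gene encodes the worm counterpart of the aryl hydrocarbon receptor, a transcription factor of the bHLH-PAS class that is known in worms for its part in the differentiation of some neurons.

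Total RNA of whole larvae was measured in 4 samples of the ahr-mutant strain, numbered 56, 60, 62 and 54 in the labels and called replicates 1 to 4 here, and in 3 wild-type samples, numbered 59, 61 and 63 and called replicates 1 to 3. Eggs of both strains were hatched on plates with liquid and Escherichia coli and the larvae were taken at L1. No label names the mutant allele or the strains. Each sample was copied into Cy3-labelled cDNA and hybridized to 1 array read in 1 colour. In RNA of whole larvae, fewer cells of a type and less RNA per cell cannot be told apart. No named spot belonged to ahr-1, so the targeted gene was not analysed here. Of 19 listed markers of olfactory and other sensory neurons 1, str-163, was in the table, and of 5 pan-neuronal genes 0, and spots outside the table have no gene name here.

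A positive signal was given by 21942 to 22593 spots of an array, with a median of 52277 to 90919 intensity units. The file of ahr-mutant replicate 1 lists its spots in another order than the other files. Its rank correlation with the other arrays was between -0.0117 and 0.0354 as deposited. It reached 0.681 to 0.811 after 21072 of its spots (90.7%) had been put back to their places, against 0.632 to 0.804 among the other 6 arrays. The places were chosen by agreement with the other 6 arrays. Only stretches with a correlation of at least 0.7 were kept, so the rise was partly built in. After the re-placing 22 of the 24 receptors had a value of replicate 1, and sri-73 and srh-79 had none. Strain differences also varied with the place on the slide, as given below beside the receptors.

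The authors' table came from these same samples, and no source used here says how its 1290 rows were chosen. Of its rows, 1154 (89.5%) had mutant values entirely above or entirely below the wild-type values. All 28 receptor rows were among them, 19 with lower and 9 with higher values in the mutants. The direction and the separation of the receptors are therefore no independent evidence. The test below was made on the intensities of all spots, in the table or not.

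Among the 24 receptors with a spot, 17 had a lower mean in the ahr mutants and 7 a higher mean. Receptors with lower means were 1.29-fold to 4.09-fold lower, and those with higher means were 1.37-fold to 10-fold higher. None of the 24 passed limma's test over 22514 spots after Benjamini-Hochberg adjustment at 0.05, and of all spots 2 (0.00888%) did. Adjusted p of the receptors lay between 0.0830 and 0.733. At an unadjusted limma p under 0.05 stood 9 receptors with lower and 6 with higher means, against 3.45% of all spots lower and 4.07% higher. Of all spots at that limit 54.1% were higher, or 43.3% with median scaling, and the direction of the receptors was the same under both. Those 15 make up 62.5% of the receptors, and 63.4% of the 757 other named genes of the table stood at the same limit. The values of the strains did not overlap for 13 receptors with lower means, against 4.51% of all spots, and for 7 with higher means, against 5.41%. Together these were 83.3% of the receptors and 79.1% of the other named table genes. The share with a lower mean was 70.8% among the receptors and 60.5% among the other named table genes, and neither difference was tested, because the table was chosen on these samples. The median log2 difference of the receptors, mutant minus wild type, was -0.70, against -0.52 for the other named table genes and 0.02 for all spots.

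**Figure D1:**
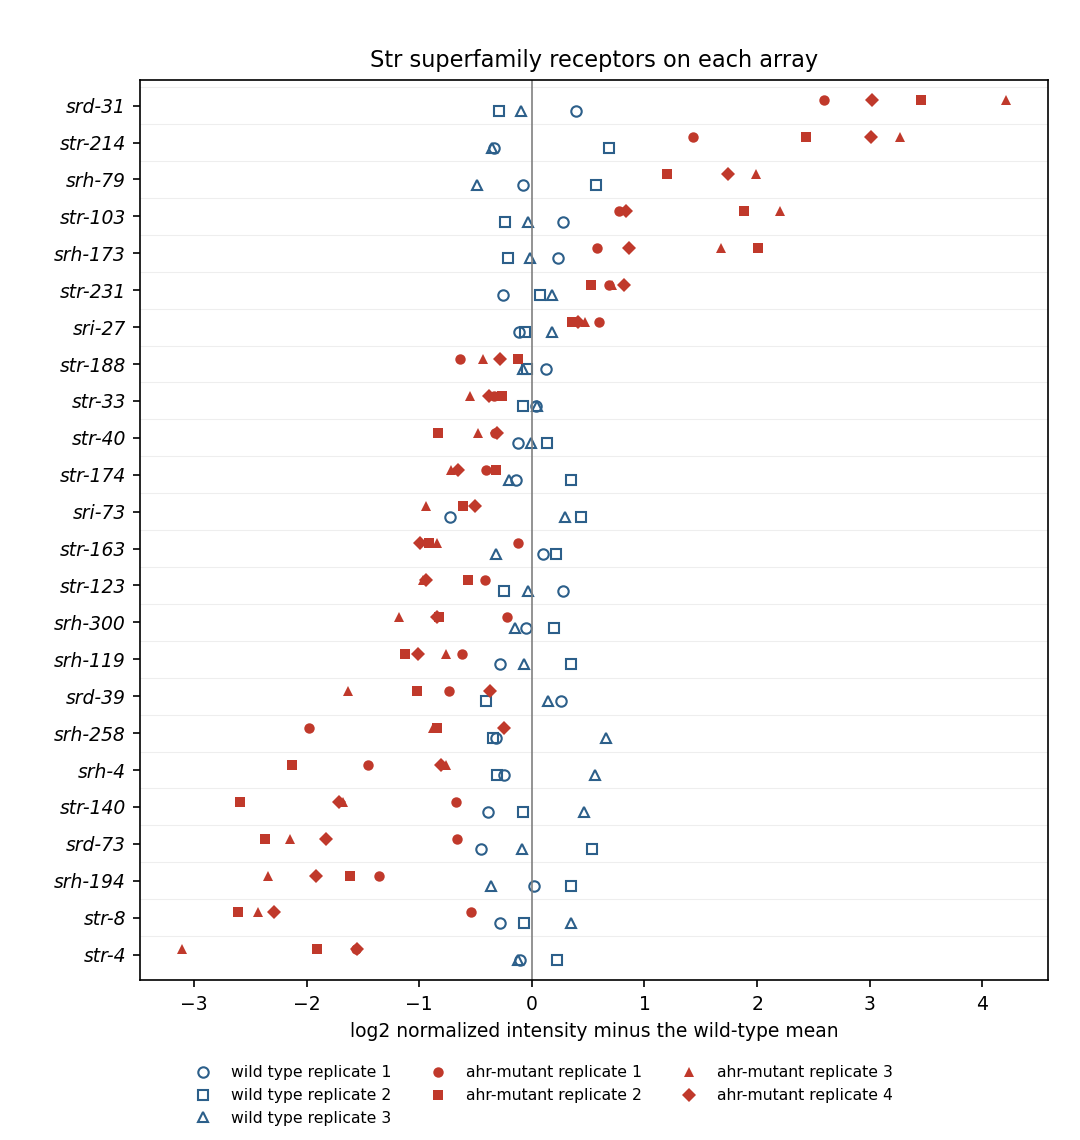
Values of the 24 receptors on each array, as log2 normalized intensity minus the wild-type mean of the same receptor (horizontal axis), with 1 row per gene. Open blue markers are the 3 wild-type arrays and filled red markers the ahr-mutant arrays, 4 or, for srh-79 and sri-73, 3. The strains do not overlap in 20 of the 24 rows, and ahr-mutant replicate 1 (red circles) lies nearest to the wild type in many of them.

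The str family gave 12 of the 24 spots, 9 with lower and 3 with higher means, and 11 of them had strains that did not overlap, against 79.1% of the other named table genes. After an adjustment for slide position, described further on, 4 of the 12 did not overlap, against 47.7%. The largest difference of the family was that of str-214. On the log2 scale str-214 read 18.80, 19.81, 20.64 and 20.38 in ahr-mutant replicates 1 to 4 and 17.04, 18.06 and 17.02 in wild-type replicates 1 to 3. Every mutant array was above every wild-type array, with replicate 1 the lowest of the mutants. The means were 19.91 ± 0.81 (SD, n = 4) and 17.37 ± 0.59 (SD, n = 3), a 5.80-fold higher level in the mutants (log2 difference 2.54 ± 0.50, SE; limma adjusted p = 0.239).

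The str member with the smallest p among those with lower means was str-4. It read 18.14, 17.79, 16.59 and 18.15 in the mutants and 19.60, 19.93 and 19.58 in the wild type. The strains did not overlap, and mutant replicate 3 lay more than 1 log2 unit below the other mutants. The level was 17.67 ± 0.74 (SD, n = 4) against 19.70 ± 0.20 (SD, n = 3), or 4.09-fold lower (log2 difference -2.03 ± 0.43, SE; limma adjusted p = 0.280). str-8 was 3.91-fold lower and str-140 3.17-fold lower, both with separate strains. In str-8 the mutant arrays other than replicate 1 read 14.94 to 15.26, while replicate 1 read 17.00, close to the lowest wild-type value of 17.27.

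The other str members differed less. str-103 was 2.68-fold and str-231 1.61-fold higher, both with unadjusted p under 0.05 and separate strains. str-123 was 1.65-fold, str-174 1.44-fold, str-40 1.40-fold, str-33 1.30-fold and str-188 1.29-fold lower, all with separate strains and none at an unadjusted p under 0.05. The protein of str-33 has been reported to affect locomotion and egg laying in worms. str-163, the one receptor that is also on the list of neuron markers, was 1.64-fold lower with overlapping strains, since replicate 1 lay within the wild-type range. Its values were dim: it was the 1 receptor with a value under the 5th percentile of normalized levels (14.55) on any array, so its fold may be understated. After the adjustment for slide position str-163 was 1.25-fold lower, again with overlapping strains.

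The srd family held the receptor with the largest difference of all 24. srd-31 read 18.21, 19.07, 19.82 and 18.63 in the mutants and 16.01, 15.32 and 15.51 in the wild type. All mutant arrays were above all wild-type arrays, and the gap between the strains was wider than the whole range of either. The means were 18.93 ± 0.69 (SD, n = 4) and 15.61 ± 0.35 (SD, n = 3), so that srd-31 was 10-fold higher (log2 difference 3.32 ± 0.43, SE; unadjusted p = 2.21e-05; limma adjusted p = 0.0830). It had the smallest p of the receptors and did not pass after adjustment. Over the alternative settings tried, the lowest adjusted p of any receptor was between 0.0517 and 0.333.

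The other srd members had lower means. srd-73 read 16.42, 14.71, 14.93 and 15.26 in the mutants and 16.63, 17.62 and 17.00 in the wild type. The strains did not overlap, but replicate 1 lay only just under the lowest wild-type value, more than 1 log2 unit above the other mutants. The level was 15.33 ± 0.76 (SD, n = 4) against 17.08 ± 0.50 (SD, n = 3), or 3.37-fold lower (log2 difference -1.75 ± 0.47, SE; limma adjusted p = 0.458). srd-39 was 1.92-fold lower with overlapping strains.

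The srh family gave 7 spots, 5 with lower and 2 with higher means, and 6 of the 7 stood at an unadjusted p under 0.05, against 63.4% of the other named table genes. After adjustment for position 3 of the 7 did so, against 41.7%. srh-194 read 15.94, 15.68, 14.95 and 15.37 in the mutants and 17.31, 17.64 and 16.93 in the wild type. The strains lay nearly 1 log2 unit apart at their closest values. The means were 15.48 ± 0.43 (SD, n = 4) and 17.29 ± 0.36 (SD, n = 3), a 3.50-fold lower level (log2 difference -1.81 ± 0.36, SE; limma adjusted p = 0.240).

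The srh member with the smallest p among those with higher means, srh-79, has no value of replicate 1 here, since its spot was not re-placed. The authors' table does hold one, a ratio of 1.25, against 0.40, 0.65 and 0.32 in wild-type replicates 1 to 3. On the log2 scale srh-79 read 16.57, 17.36 and 17.11 in mutant replicates 2 to 4 and 15.29, 15.94 and 14.88 in the wild type. The strains did not overlap, with wild-type replicate 2 nearest to the mutants. srh-79 was 3.13-fold higher (17.02 ± 0.41 against 15.37 ± 0.53; SD, n = 3 each; log2 difference 1.65 ± 0.42, SE; limma adjusted p = 0.458). Of the other srh members, srh-173 was 2.43-fold higher, and srh-4 was 2.44-fold, srh-258 1.98-fold, srh-119 1.84-fold and srh-300 1.70-fold lower. srh-258 was the one with overlapping strains, and it did not reach an unadjusted p of 0.05.

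The sri family gave 2 spots with small differences of opposite sign. sri-27 read 15.94, 15.70, 15.81 and 15.75 in the mutants and 15.23, 15.28 and 15.52 in the wild type. The strains were close and did not overlap. sri-27 was 1.37-fold higher (log2 difference 0.46 ± 0.30, SE; limma adjusted p = 0.701).

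sri-73, also without a value of replicate 1, read 17.90, 17.56 and 18.00 in the mutants and 17.78, 18.94 and 18.80 in the wild type. Wild-type replicate 1 lay among the mutants and the strains overlapped. sri-73 was 1.61-fold lower (log2 difference -0.69 ± 0.42, SE; limma adjusted p = 0.695), at an unadjusted p of 0.140.

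**Figure D2:**
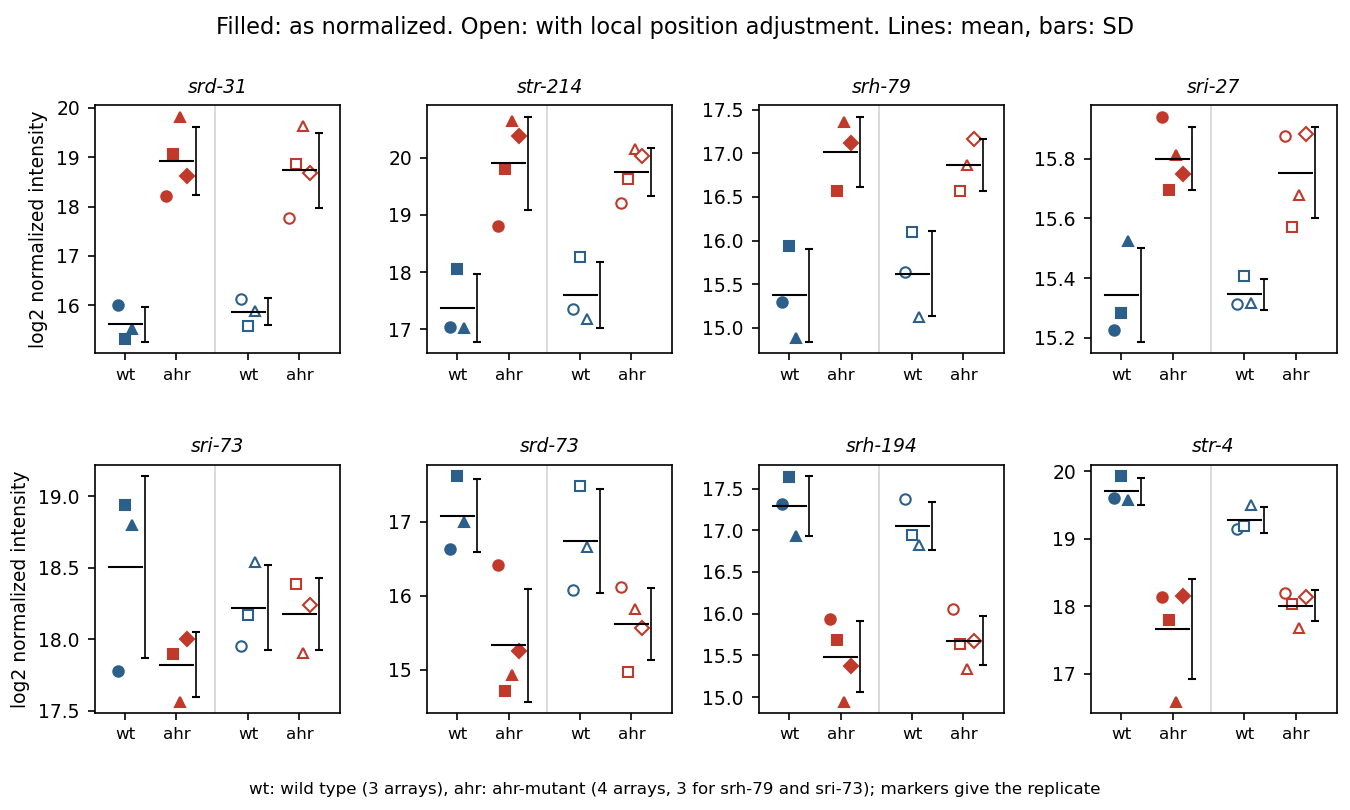
Log2 normalized intensity (vertical axis, its own range in each panel) of the 8 receptors with the smallest p in their family and direction, in wild type (blue) and ahr mutants (red). Filled markers on the left are values as normalized and open markers on the right values after the local position adjustment, where the strains of srd-73 and sri-73 overlap. Horizontal lines are means and vertical bars SD, and the shapes mark replicates 1 (circle), 2 (square), 3 (triangle) and 4 (diamond).

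Receptors with lower and with higher means lay in different parts of the slide. The array has 12 slide rows of blocks, and all 17 receptors with lower means were in rows 1 to 5 and all 7 with higher means in rows 7 to 12. Spots outside the table, which have no gene name here, had a median log2 difference of -0.44 in row 1, rising to 0.50 in row 12. All 24 receptors had the sign of the outside median of their own row. The drift was not shared by all arrays of a strain: the median deviation of ahr-mutant replicate 3 ran from -0.91 in row 1 to 0.66 in row 12, and that of replicate 4 from 0.15 to -0.18. Slide row 2 held 8 of the 24 receptors (33.3%), srd-39, srd-73, srh-119, srh-300, str-8, str-33, str-140 and str-163, against 127 of the 1053 table spots (12.1%). In that row 123 table spots had lower and 4 had higher means. The table spots of row 1 were 83 lower and 1 higher, and those of row 12 were 4 lower and 82 higher. Nearer the middle the split was weaker, with 29 lower and 23 higher in row 7. The split by slide row was therefore not particular to the receptors.

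Set against the unnamed spots of their own slide row, the receptors split into those far out and those inside the row's spread. No outside spot of row 12, of 1766, lay as far above the row median as srd-31. For str-214 there were 2 of 1821 in row 9, for str-4 5 of 1765 below in row 1, for srh-194 9 of 1755 below in row 5 and for str-8 14 of 1704 below in row 2. These 5 receptors had fewer than 1% of outside spots as far out in their direction, and 10 receptors fewer than 5%. At the other end stood str-33, with 46.1% of the outside spots of its row as far below. These shares are descriptions, and setting the table apart takes the most different spots out of the outside group.

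**Figure D3:**
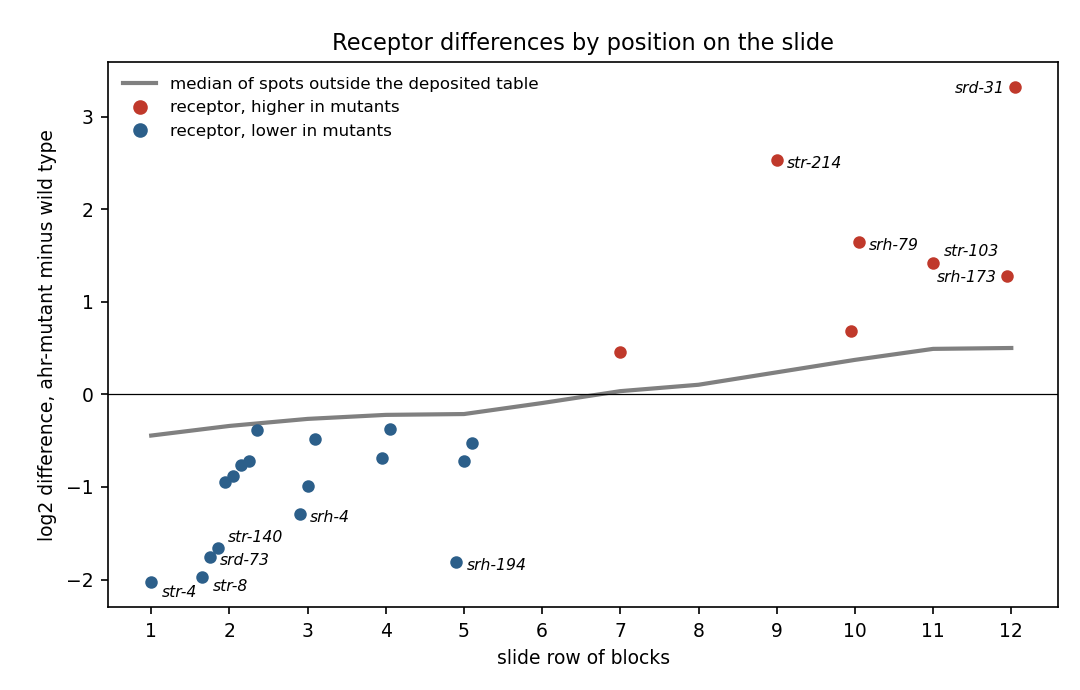
Log2 difference between the strains (vertical axis, ahr-mutant minus wild type) against the slide row of blocks (horizontal axis, 1 to 12). The grey line is the median of the spots outside the deposited table in each row, blue points are the 17 receptors with lower means and red points the 7 with higher means. Receptors are shifted sideways within a row for legibility, those with an absolute difference over 1.2 are named, and every receptor has the sign of the line in its row.

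The fit was repeated after an adjustment for position, which subtracts from each spot of an array the median deviation of its neighbours in a window of 15 by 15 spots. All 24 receptors kept their direction and all 24 differences became smaller. Since all 24 had the sign of the outside median of their row, the smaller differences were largely built in. The median log2 difference of the receptors went from -0.70 to -0.27 and their median absolute difference from 0.96 to 0.62. For the other named table genes these went from -0.52 to -0.24 and from 0.93 to 0.58. At an unadjusted p under 0.05 stood 9 receptors, 6 lower and 3 higher, against 3.3% and 3.47% of all spots. This was 37.5% of the receptors, against 41.7% of the other named table genes. The strains did not overlap for 11 receptors, 7 lower (4.51% of all spots) and 4 higher (4.74%). This was 45.8% of the receptors, against 47.7% of the other named table genes. None passed after Benjamini-Hochberg adjustment (lowest limma adjusted p = 0.0678, for srd-31), and 3 of all spots (0.0133%) did.

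The receptors farthest from their row kept most of their difference. With the adjustment srd-31 was 7.31-fold higher and str-214 4.45-fold higher, srh-194 was 2.60-fold lower, str-8 2.54-fold lower and str-4 2.41-fold lower, all with separate strains. srh-79 was 2.37-fold higher, and str-140 at 2.19-fold and srh-4 at 2.04-fold were lower, again with separate strains. srd-73 was 2.18-fold lower with overlapping strains. The folds of str-4, str-8, srd-73, sri-73 and srh-300 became smaller by more than 1.5 times. srd-39 and srh-258 had overlapping strains as normalized and separate ones after the adjustment, at 1.44-fold and 1.64-fold lower. Little was left of str-40 (1.03-fold lower), sri-73 (1.03-fold), str-33 (1.10-fold) and srh-300 (1.13-fold). Of the receptors with higher means, str-103 (1.82-fold), srh-173 (1.73-fold) and str-231 (1.32-fold) had overlapping strains after it, while those of sri-27 (1.33-fold) stayed separate.

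**Figure D4:**
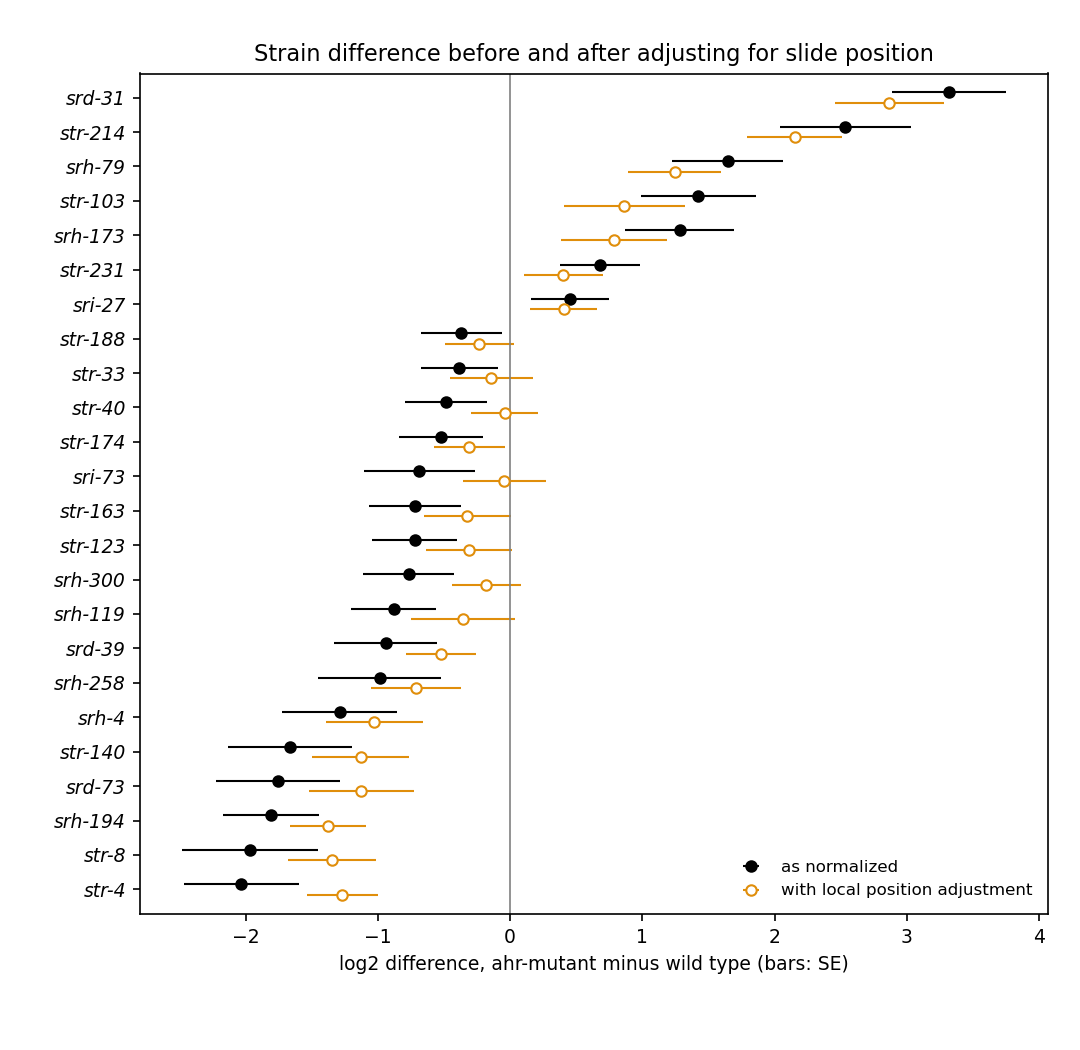
Log2 difference between the strains (horizontal axis, ahr-mutant minus wild type; bars are SE) of the 24 receptors as normalized (black) and with the local position adjustment (orange). Each orange point lies nearer to 0 than its black point and on the same side of it, and srd-31 and str-214 stay above a difference of 2.

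The table of the authors holds no value of ahr-mutant replicate 1 for any of the 752 rows with a lower mutant mean, the 19 receptors with lower values included, and holds one for all 538 rows with a higher mean. No source used here says why. The array file supplies 16 of the missing receptor values, by way of the re-placing. Positions known for a check came only from rows with a replicate 1 value, so none of the 16 was checked at its own spot. In 15 of the 16 (93.8%) replicate 1 lay below every wild-type array, and the exception was str-163. Among the other table spots without a replicate 1 value it did so in 540 of 593 (91.1%), and among spots outside the table in 24.2%. After the position adjustment it lay below all wild-type arrays in 11 of the 16 receptors (68.8%), against 70.8% of those other table spots and 23.4% of spots outside the table. Of the 6 receptors with higher means and a value of replicate 1, all 6 had it above every wild-type array as normalized, as did 93.6% of the other table spots with a replicate 1 value and 22.5% of spots outside the table. After the adjustment 3 of the 6 had it above, against 70.4% and 22.8%, and that of str-103 was then below all wild-type values.

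Replicate 1 was nonetheless the mutant array nearest to the wild type in 8 of the 16 receptors with lower means and in 4 of the 6 with higher means. Replicate 3 was the farthest in 7 of the 16 and 3 of the 6. With the position adjustment replicate 1 was nearest in 7 of the 16 and 5 of the 6. Among the 16, replicate 3 was then farthest in 4 and nearest in 6, and replicate 2 was farthest in 7. Without replicate 1 the difference was larger for 13 of the 16 receptors with lower means that have a value of it and for 4 of the 6 with higher means. Examples were str-8, which went from -1.97 to -2.44 on the log2 scale, and srd-73, from -1.75 to -2.12. The spread was wider in the mutants than in the wild type for 18 of the 24 receptors, with a median SD of 0.42 against 0.31. Whether the order of the spots in the file of replicate 1 or the drift over the slide has a part in this was not tested. None of these counts was made for other spots, so they are not shown to be particular to the receptors.

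The remaining 4 receptors, str-46, str-156, srh-186 and sri-25, share every value of their row with another gene of the table, and these values equal the mean of 2 spots. Naming all 4 was decided after their values were seen. The shared values do not tell which of the 2 spots belongs to the receptor. In the row numbers of the authors' table, the receptors with a spot follow the slide rows in order. By that order sri-25 would be the spot in slide row 1, str-156 that in row 9 and str-46 that in row 12. For srh-186 the order of the receptors does not decide between its 2 spots. This assignment was not tested. Both candidate spots of str-156, whose row is shared with egg-2, were higher in the mutants, by 0.98 ± 0.46 and 1.13 ± 0.36 on the log2 scale (SE), in slide rows 9 and 10. Both candidates of srh-186 were higher as well (0.47 ± 0.32 in slide row 6 and 0.68 ± 0.39 in row 7). Both of sri-25 were lower (-0.50 ± 0.73 in slide row 1 and -0.71 ± 0.48 in row 4). The candidates of str-46 differed in sign, at -0.72 ± 0.32 in slide row 5 and 0.11 ± 0.37 in row 12. With the position adjustment both were lower, at -0.32 and -0.25.

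Other parts of the chemosensory system in the table were few. The remaining receptor families (Sra and Srg superfamilies and the families outside any superfamily) gave 30 spots, 18 with lower and 12 with higher means, at a median log2 difference of -0.65. Of these, 22 stood at an unadjusted p under 0.05 and 25 had separate strains, and 0 passed after adjustment (limma). Among the 757 named table genes that are not Str receptors, which include these, 63.4% stood at that limit and 79.1% had separate strains. Adjusted for position, 17 of the 30 stood at that limit and 18 had separate strains, against 41.7% and 47.7%. They too were chosen with the table. The Srg superfamily had 6 spots with higher and 5 with lower means. Its gene srx-131, singled out after its values were seen, was 2.87-fold higher in slide row 2, where the median of the outside spots was -0.34. With the position adjustment srx-131 was 3.88-fold higher. In the Sra superfamily srab-22, also singled out after its values were seen, was 1.67-fold lower in slide row 9. The median of the outside spots there was 0.24, and with the position adjustment srab-22 was 2.79-fold lower.

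Of 4 genes of receptor trafficking, 1 was in the table. This was odr-8, which encodes a protease-like protein needed for the maturation of odorant receptors, and it was 1.77-fold higher (slide row 12) and 1.08-fold higher with the position adjustment. Of 17 genes of chemosensory signalling, the table held arr-1, which encodes an arrestin, 1.34-fold lower and 1.08-fold lower with the adjustment. Of 26 cilium genes it held dyf-4, which was 3.31-fold lower, and bbs-5, whose protein is a subunit of the BBSome complex of cilia and which was 2.59-fold lower. With the adjustment dyf-4 was 2.12-fold and bbs-5 2.36-fold lower. None of these passed after adjustment (lowest limma adjusted p = 0.446). No gene of the bHLH-PAS list was in the table.

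Markers of other tissues in the table were spread over the slide in the same way. Of 4 spots of sperm genes 3 had higher means (slide rows 7 to 9) and 1 a lower mean (row 2), and of 8 spots of cuticle genes 3 had higher means (rows 7 to 10) and 5 lower means (rows 1 to 5). With the position adjustment the cuticle genes stood at 4 higher and 4 lower. Their part in the receptor differences was not tested.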

How the data were processed

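The authors deposited 1 linear intensity per spot and array, and a value table whose entries are, by their fit to the array files, a ratio of each signal to a constant of its row after 1 scaling constant per array. The sources used here name no scanner, background treatment or software. Members, gene lists and tests were chosen with earlier results of these data known.

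Table rows were matched to spots by value. Blank, 0 and negative intensities were set missing. The log2 of each intensity was quantile normalized over the 7 arrays. Replicate 1 of the mutants was put back in order by matching its signal along the source plates. Of 354 spots of known position, signal alone placed 336, and 331 of these rightly. A stretch of 765 spots, where 5 of 16 known positions lay elsewhere, was then left out. Spots with at least 2 values per strain were tested, two-sided, with lmFit and eBayes of limma 3.58.1 in R 4.3.3. Benjamini-Hochberg adjustment was over all 22514 spots. A fold is 2 to the power of the absolute log2 difference. The fit and the position adjustment were tested on simulated data that did not copy the drift of the real arrays over the slide. The re-placing was tested on a rearranged real array. Over the 1080 table rows matched to 1 spot, the 24 receptors among them, the largest match distance was 2.76e-06 on the log2 scale. The nearest other spot lay at 0.047 or more.

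Every receptor with a spot may be named. Values on every array are given for the receptor with the smallest unadjusted p in each family and direction. Among receptors without a spot, the one with the largest table difference per family may be named, and other genes come from lists of chemosensory, cilium, neuron, sperm and cuticle genes. Samples were grouped by their strain label, and replicate numbers follow the order of deposit and pair nothing. The labels call the mutant samples biological samples, while those of the wild type say only sample. Separate cultures are not stated, so p-values reflect only the spread from sample to sample, which may be technical. The number of arrays limits the precision. Alternatives changed the scaling, the order of steps, the background, the position adjustment, the filters and the arrays used. Coordinates are left out, since no source names the genome build of the array.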

Additional observations from a re-analysis of the deposited data

Results flagged for a closer look

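Of 22 sets of 4 mutant values examined, 2 had 1 array that stood apart from the other 3 by Dixon's criterion, which chance alone meets in about 1 of 20 sets. In str-8, ahr-mutant replicate 1 read 17.00 on the log2 scale, while the other mutants read 14.94 to 15.26. In str-163, ahr-mutant replicate 1 read 15.12, while the others read 14.25 to 14.40. Both receptors lie in slide row 2, where the median deviation of replicate 1 was 0.26 and that of replicate 3 was -0.62. With the position adjustment replicate 1 of str-8 read 16.59 and the other mutants 15.36 to 15.94. In str-163 replicate 1 then read 14.64, below all wild-type arrays, replicates 2 and 4 read 14.42 and 14.46, and replicate 3 was the highest at 15.25.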

How the results depend on the processing

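The number of spots called over the whole array was 2 and fell to 0 with median scaling, with quantile normalization after re-placing replicate 1, with normexp background correction and without the lowest 25% of levels. The spots at an unadjusted p under 0.05 then numbered 1556, 1691, 1695 and 1346, against 1693. Without any 1 of the 7 arrays the calls were also 0 (lowest 0, highest 0), with 1176 to 2056 spots at that limit. Median scaling moved the share of higher spots at that limit from 54.1% to 43.3%, and leaving out wild-type replicate 3 moved it to 42.4%. The receptors at an unadjusted p under 0.05 went from 15 to 9 with the local position adjustment and were 11 to 16 without single arrays. The causes were not tested. No receptor changed direction in any setting without a position adjustment, and 17 stayed lower, or 16 where fewer were tested. Among fits with the local adjustment 15 to 17 stayed lower, and those that turned were str-40, sri-73 and str-123. Of the receptors given on every array, sri-73 turned with the local adjustment without ahr-mutant replicate 3 and without wild-type replicate 3. In the fits that changed 1 choice at a time, srd-31 stayed between 2.81 and 3.85, str-214 between 2.15 and 2.90, str-4 between -2.21 and -1.27 and srh-194 between -2.32 and -1.38 in log2 difference. The 1st percentile of positive signals was 15336 to 21255 units, so a floor may remain under dim spots and their folds may be understated. Detection calls and background values were not analysed here. No paired analysis was possible because replicate numbers were given here in deposit order only.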
